A study of Mus musculus with 12 samples.

Results

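The cadherins and protocadherins of mouse pancreas were followed in 3 kinds of sample, as the genes whose symbol begins with Cdh and a digit or with Pcdh and that had a probe set with a single gene symbol. Of 18194 genes on the arrays 56 qualified, and each was read from the probe set with the highest mean over all 12 arrays. They comprised 5 type I classical cadherins, 11 type II classical cadherins, 5 other cadherins, 12 non-clustered protocadherins and 23 clustered protocadherins, of which 22 were Pcdhb genes.

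The study asked whether a pulse of YAP, a transcriptional coactivator held back by the Hippo pathway, turns acinar cells into duct-like progenitors. The yDucts were ductal organoids grown from acini of R26-rtTA; tetO-YAP S127A mice, in which doxycycline had switched on a YAP with the substitution S127A, a form that escapes one of its inhibitory phosphorylations. In this system rtTA is made from the R26 locus, which is active in most cell types, so YAP induction is not limited to acinar cells by its driver. In separate mice the paper labelled acinar cells through Ptf1a-CreERTM, obtained labelled yDucts and found no label in organoids from native ducts. According to the methods the yDucts were passaged without doxycycline after the induction. The Ducts were organoids from hand-picked duct fragments, and no transgene is named for them. Both grew in Matrigel in the same organoid medium, with gastrin, EGF, Noggin, FGF10, nicotinamide and R-Spondin1. The Acini were exocrine acini of adult mice, freshly isolated from the tissue, and their genotype is not stated in the labels. Each group held 4 arrays, lettered A to D. Since every organoid sample was cultured and every Acini sample was not, culture and cell type cannot be told apart in any comparison with Acini.

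Cadherins are calcium-dependent adhesion proteins whose extracellular repeats bind cadherins of the neighbouring cell. Classical cadherins hold catenins at their cytoplasmic tail and so tie the junction to actin, and E-cadherin, the product of Cdh1, is the one that joins the epithelial cells of the exocrine pancreas. Protocadherins have more repeats and no catenin-binding tail. The clustered ones are known from neurons, where each cell uses a few of the promoters lined up along the locus, a choice that depends on CTCF, cohesin and promoter methylation.

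Values are log2 expression, so a difference of 1 is a 2-fold change. For a member to be tested, its value had to exceed the 30th percentile of all probe sets on the same array in 4 or more arrays, and it was called at an adjusted p under 0.05. The arrays show a relative signal per probe set, with no detection calls among the values used here, and the small number of arrays limits the precision. In such bulk samples fewer cells of a type and less RNA per cell cannot be told apart. The 7 measured acinar markers averaged 3.67 to 3.91 on the yDucts arrays and 3.43 to 3.92 on the Ducts arrays, against 12.64 to 12.77 on the Acini arrays. The 6 ductal markers averaged 9.0 to 9.57 in yDucts and 8.44 to 10.80 in Ducts, against 6.64 to 6.84 in Acini. In yDucts 3 of these 6 rose, 1 fell (Muc1) and 2 were not called, and in Ducts 3 rose and 3 were not called, against Acini. Of all 14991 tested genes 43.6% rose and 32.6% fell in yDucts, and 42.7% rose and 33.1% fell in Ducts. Every share of all genes given below is a share of these tested genes. The dim end of the arrays differed as well, with the 30th percentile at 3.19 ± 0.01 in yDucts and 3.21 ± 0.02 in Ducts, against 3.72 ± 0.06 in Acini (SD, n = 4 each). The median difference over all tested genes was 0.24 for yDucts and 0.20 for Ducts against Acini. Gapdh probe sets at the 3′ end read higher than those at the 5′ end by -0.15 ± 0.02 in yDucts and -0.04 ± 0.04 in Ducts, against 1.53 ± 0.29 in Acini (log2, SD, n = 4 each), and the part of this difference in the values below was not tested. The Ducts arrays did not form a tight group for several members, and A and B stood apart from C and D. Car2, a ductal marker, read 8.86 to 10.54 in yDucts, 10.70, 11.78, 6.51 and 6.04 in Ducts, and 4.95 to 5.88 in Acini.

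Of the 56 members 31 passed the filter, namely all 5 type I and all 5 other cadherins, 4 type II cadherins, 9 non-clustered and 8 clustered protocadherins. Of the 25 that did not, 13 were below the percentile on all 12 arrays and none was above it on more than 3. These 25 members ranged from 2.06 to 3.09 on the yDucts arrays, from 1.88 to 3.33 on the Ducts arrays and from 2.22 to 4.98 on the Acini arrays. None of them was above the percentile on any yDucts array, 1 was so on a Ducts array and 11 were so on an Acini array. A member that passed only through the group where it is high had to differ, so the counts below describe the tested members and not the family.

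In yDucts against Acini 7 tested members rose and 14 fell, with 10 not called, and their median difference was -0.43. Of all genes 43.6% rose and 32.6% fell in this comparison, 76.2% in all. In Ducts against Acini 8 members rose and 15 fell, with 8 not called and a median of -0.49, beside 42.7% and 33.1% of all genes and 75.7% in all. The groups did not overlap for 18 members in yDucts against Acini, where 71.7% of all genes did not, and for 16 in Ducts against Acini, where 64.5% did not. Between the organoid groups, yDucts against Ducts, 1 member rose, 2 fell and 28 were not called, beside 2.15% and 0.987% of all genes and 3.14% in all. There the groups did not overlap for 7 members, beside 12.3% of all genes. By family, the yDucts held 2 type I cadherins higher and 1 lower, 1 type II higher and 2 lower, 2 other cadherins higher and 2 lower, 2 non-clustered protocadherins higher and 5 lower, and 0 clustered higher and 4 lower than Acini. The Ducts held 3 type I cadherins higher and 2 lower, 1 type II higher and 2 lower, 2 other cadherins higher and 2 lower, 1 non-clustered protocadherin higher and 5 lower, and 1 clustered higher and 4 lower. The number of falls depended on how the arrays were put on a common scale. After cyclic loess normalization 8 members fell and 9 rose in yDucts, and 7 fell and 9 rose in Ducts, against Acini.

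**Figure D1:**
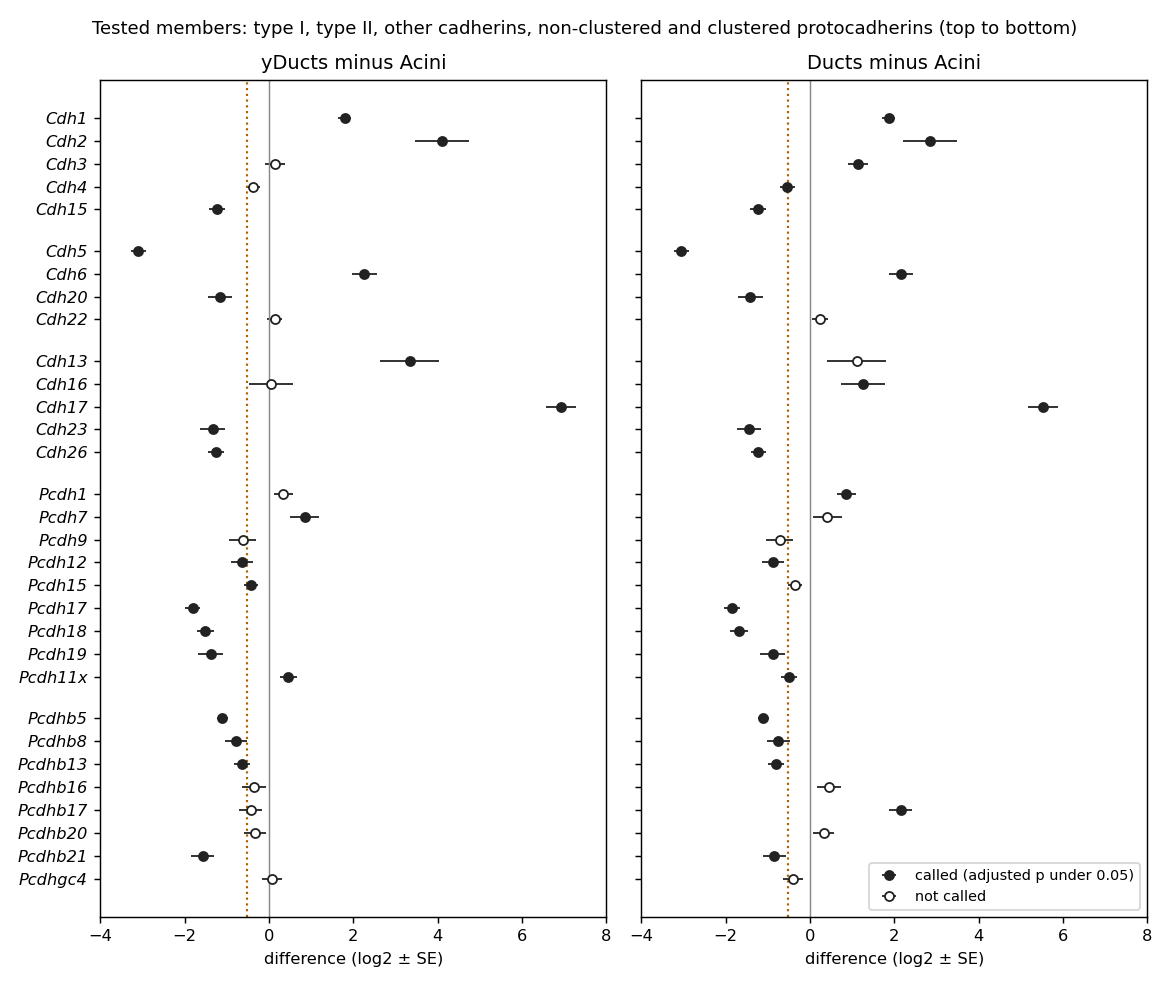
Differences of the 31 tested members in log2 units with their standard errors, yDucts minus Acini on the left and Ducts minus Acini on the right, filled where called, with families separated by gaps. The dotted line marks the difference in the 30th percentile of the arrays, -0.53 for yDucts and -0.51 for Ducts. Cdh17 stands farthest to the right in both panels and Cdh5 farthest to the left.

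Promoter sequences of members that moved against Acini are shown so that the motif counts can be read on the letters themselves. They come from RefSeq on build GRCm38.p6 and span 300 bases around the start, 5′ to 3′ on the gene's strand. A pair of motifs was searched on both strands, and the motifs share no overlap in these windows. The E-box CAGGTG, which reads CACCTG on the other strand, is bound by SNAI and ZEB repressors of cadherin genes. The core GGAATG, which reads CATTCC on the other strand, is bound by TEAD factors, the DNA-binding partners of YAP. Cdh6, a type II cadherin that rose in both organoid groups, lies on the minus strand at chr15:13173626-13173925, and its window holds no match to either motif. Cdh20, a type II cadherin that fell in both, lies on the plus strand at chr1:104768270-104768569 and holds 1 TEAD core, in capitals. Pcdh7 was called higher in yDucts, a call lost under many of the alternatives. It lies on the plus strand at chr5:57717831-57718130 and holds 1 E-box, in capitals. 
Cdh6: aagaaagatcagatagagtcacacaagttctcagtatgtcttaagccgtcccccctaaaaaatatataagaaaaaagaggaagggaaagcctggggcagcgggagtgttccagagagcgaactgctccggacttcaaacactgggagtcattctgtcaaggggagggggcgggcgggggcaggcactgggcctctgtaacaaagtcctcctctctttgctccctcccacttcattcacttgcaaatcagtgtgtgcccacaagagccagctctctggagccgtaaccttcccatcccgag
Cdh20: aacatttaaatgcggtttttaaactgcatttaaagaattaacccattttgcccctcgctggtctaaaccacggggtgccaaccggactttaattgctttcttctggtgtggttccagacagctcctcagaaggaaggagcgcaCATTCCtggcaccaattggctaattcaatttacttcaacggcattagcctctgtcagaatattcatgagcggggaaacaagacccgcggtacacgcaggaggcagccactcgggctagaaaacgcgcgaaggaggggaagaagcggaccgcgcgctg
Pcdh7: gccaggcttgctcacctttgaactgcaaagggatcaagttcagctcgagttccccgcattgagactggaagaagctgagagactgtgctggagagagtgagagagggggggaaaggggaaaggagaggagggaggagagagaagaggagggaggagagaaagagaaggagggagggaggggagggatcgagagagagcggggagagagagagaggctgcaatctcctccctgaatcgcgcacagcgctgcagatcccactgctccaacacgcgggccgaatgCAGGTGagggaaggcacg

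Of the 56 members 20 had a promoter entry, 12 of them tested. An E-box stood in 3 of the 20 (Cdh7, Pcdh7 and Pcdh15), and 20.2% of all 32851 promoters in the table held one. A TEAD core stood in 3 of the 20 (Cdh9, Cdh10 and Cdh20), against 14.7% of all promoters. Members were counted by gene, over every window of the gene, and all promoters by window, so these shares differ in unit. A match describes letters and not a binding site.

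Among the type I cadherins, Cdh1 and Cdh2 rose in both organoid groups and Cdh15 fell. Cdh1, E-cadherin, read 11.56, 11.73, 11.63 and 11.65 on the yDucts arrays and 11.74, 11.72, 11.70 and 11.74 on the Ducts arrays, against 9.64, 9.68, 10.31 and 9.78 on the Acini arrays. All 8 organoid arrays were above all 4 Acini arrays, and the organoid arrays lay closer together than the Acini arrays. Cdh1 was 3.46-fold higher in yDucts than in Acini (log2 difference 1.79 ± 0.15, SE, adjusted p = 4.18e-07) and 3.66-fold higher in Ducts than in Acini (1.87 ± 0.15, adjusted p = 2.8e-07). No alternative ended either call, but the size depended on the scaling, and after cyclic loess the difference was 0.76 in yDucts and 0.83 in Ducts. Between yDucts and Ducts the difference in Cdh1 was -0.08, with a 95% interval of -0.41 to 0.25.

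Cdh2, N-cadherin, the classical cadherin of neural tissue, muscle and endocrine cells, read 7.65, 8.60, 7.62 and 7.26 in yDucts. The Ducts split for Cdh2, with 5.05 and 4.99 on arrays A and B and 7.92 and 8.16 on arrays C and D. The Acini arrays read 3.85, 3.86, 3.36 and 3.68 for Cdh2, at about the percentile below which members were not tested. Cdh2 was at least 16.1-fold higher in yDucts (4.10 ± 0.65, adjusted p = 8.15e-05) and at least 6.76-fold higher in Ducts (2.84 ± 0.65, adjusted p = 0.00144) than in Acini, taking the percentile as the floor where Acini lay below it. Ducts C and D lay within the yDucts range for Cdh2 and Ducts A and B below it. Cdh2 did not pass the test between yDucts and Ducts (1.25 ± 0.65, adjusted p = 0.444). Without Ducts C and D that difference was 2.76, while leaving out Ducts A and B gave -0.26. These pairs follow the split in the same values, so both differences are given as a description. A second Cdh2 probe set also put Ducts C and D within the yDucts range and Ducts A and B below it, here at about the Acini level. It read 6.17, 7.08, 6.13 and 6.02 in yDucts, 3.96, 3.26, 6.46 and 6.51 in Ducts, and 3.31, 3.24, 3.47 and 3.95 in Acini.

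Cdh3, P-cadherin, whose gene lies beside Cdh1, differed between the organoid groups. It read 5.36, 5.65, 5.71 and 6.01 in yDucts and 7.44, 6.44, 6.45 and 6.42 in Ducts, against 5.88, 5.40, 5.34 and 5.55 in Acini. Every Ducts array was above every yDucts and Acini array for Cdh3, while the yDucts and Acini arrays overlapped. Cdh3 was 2.21-fold higher in Ducts than in Acini (1.15 ± 0.24, adjusted p = 0.000756, and 0.0554 after cyclic loess and 0.232 for the mean of its probe sets) and was not called in yDucts (0.14 ± 0.24, adjusted p = 0.601). It was 2.01-fold lower in yDucts than in Ducts (-1.0 ± 0.24, adjusted p = 0.0384), a call that was lost when any yDucts array, Ducts C or D, or Acini B, C or D was left out (adjusted p up to 0.149). A dimmer Cdh3 probe set read lower in both organoid groups than in Acini, by -0.92 in yDucts and -0.65 in Ducts. The remaining type I members were low. Cdh15, M-cadherin of muscle, read 3.90, 4.40, 4.11 and 3.94 in yDucts and 4.02, 4.30, 3.95 and 4.09 in Ducts, against 5.01, 5.40, 5.07 and 5.81 in Acini, with no overlap of either organoid group and Acini. It was 2.35-fold lower in yDucts (adjusted p = 6.79e-05) and 2.35-fold lower in Ducts (adjusted p = 7.01e-05) than in Acini. Cdh4, R-cadherin, had 4.12 ± 0.07 in yDucts and 3.97 ± 0.11 in Ducts, against 4.50 ± 0.36 in Acini, and was called in Ducts alone (adjusted p = 0.0122), a call lost under each of the 3 other scalings and without Ducts C and D (adjusted p = 0.0647). Its difference between yDucts and Ducts was 0.15 (adjusted p = 0.857).

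**Figure D2:**
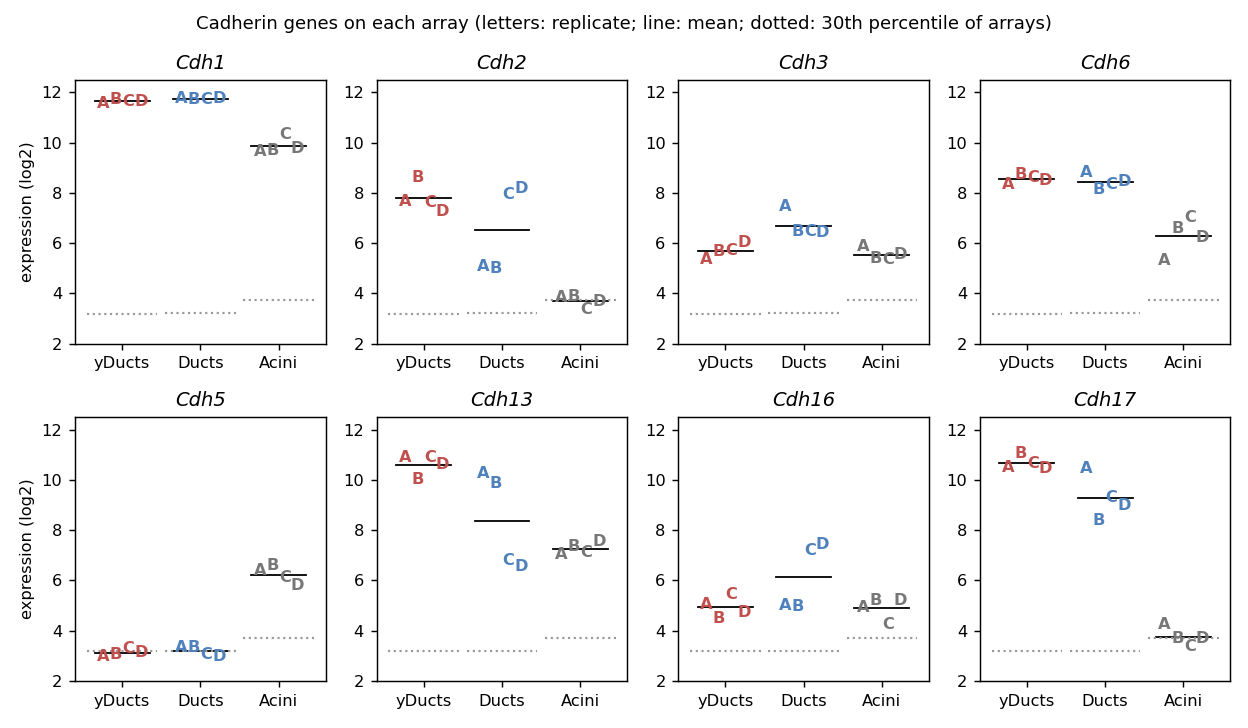
Log2 expression of 8 cadherin genes on each array, with letters for replicates A to D, yDucts, Ducts and Acini shown left to right, a line at the group mean and a dotted line at the mean 30th percentile of the group's arrays. Cdh1, Cdh6 and Cdh17 are higher on all organoid arrays than on all Acini arrays, while Ducts A and B part from Ducts C and D for Cdh2, Cdh13 and Cdh16.

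Of the 11 type II cadherins only Cdh5, Cdh6, Cdh20 and Cdh22 passed the filter. Cdh6, known from the kidney tubule as K-cadherin, read 8.34, 8.71, 8.60 and 8.49 in yDucts and 8.82, 8.13, 8.35 and 8.45 in Ducts, against 5.31, 6.58, 7.0 and 6.21 in Acini. The organoid groups did not overlap with Acini for Cdh6 and overlapped with each other. Cdh6 was 4.79-fold higher in yDucts (2.26 ± 0.29, adjusted p = 1.49e-05) and 4.48-fold higher in Ducts (2.16 ± 0.29, adjusted p = 2.22e-05) than in Acini. Its second probe set gave a larger gap, with means of 9.48 ± 0.10 in yDucts and 9.31 ± 0.26 in Ducts, against 4.38 ± 0.48 in Acini. That probe set became the brighter one whenever 1 Acini array was left out, and the differences were then 4.94 to 5.32 in yDucts and 4.77 to 5.15 in Ducts, while cyclic loess gave 1.21 in yDucts and 1.11 in Ducts. Between yDucts and Ducts, Cdh6 differed by 0.10, with a 95% interval of -0.54 to 0.73.

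Cdh5, VE-cadherin, the junction protein of blood vessels, moved the other way. It read 2.99, 3.06, 3.28 and 3.15 in yDucts and 3.34, 3.33, 3.05 and 2.99 in Ducts, against 6.38, 6.61, 6.11 and 5.79 in Acini. The organoid arrays lay about the percentile for Cdh5 and the Acini arrays well above it. Cdh5 was at least 8.01-fold lower in yDucts (adjusted p = 1.35e-08) and at least 7.73-fold lower in Ducts (adjusted p = 1.59e-08) than in Acini. The 8 endothelial markers fell with it, averaging 3.53 to 3.59 on the yDucts arrays and 3.39 to 3.70 on the Ducts arrays, against 6.11 to 6.56 on the Acini arrays. All 8 were called lower in both comparisons, beside 32.6% of all genes in yDucts and 33.1% in Ducts. Pecam1, Tek, Tie1 and Emcn were below the percentile in both organoid groups. They passed the filter only through Acini, where they are high, so among tested genes they had to differ. The part of the 8 markers in the fall of Cdh5 was not tested. Cdh20, a type II cadherin of the neural lineage, read 3.71, 3.48, 3.73 and 3.76 in yDucts and 3.51, 3.43, 3.33 and 3.44 in Ducts, against 4.04, 4.36, 5.25 and 5.70 in Acini. Acini C and D stood highest and no organoid array reached the lowest Acini array. Cdh20 was 2.25-fold lower in yDucts (adjusted p = 0.00265, and 0.0878 after cyclic loess) and 2.66-fold lower in Ducts (adjusted p = 0.000702). The 6 measured neural and glial markers averaged 3.51 to 3.57 in yDucts and 3.41 to 3.59 in Ducts, against 4.58 to 4.88 in Acini, with Tubb3 and Snap25 below the percentile in all 3 groups and Elavl4 in the organoids. Their part in the fall of Cdh20 was not tested. Cdh22, of brain and pituitary, was not called, with 3.16 ± 0.12 in yDucts and 3.27 ± 0.31 in Ducts, against 3.03 ± 0.30 in Acini. Cdh7, Cdh8, Cdh9, Cdh10, Cdh11, Cdh18 and Cdh19 were not tested, Cdh11 among them, the cadherin of mesenchymal cells, at 2.37 to 2.78 in yDucts, 2.41 to 2.67 in Ducts and 3.03 to 3.80 in Acini.

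Among the other cadherins, Cdh17 gave the largest rise of the family in both organoid groups. Cdh17, LI-cadherin of the intestinal epithelium, read 10.50, 11.07, 10.64 and 10.47 in yDucts and 10.44, 8.37, 9.29 and 8.98 in Ducts, against 4.23, 3.67, 3.37 and 3.69 in Acini. Only 1 of the 4 Acini arrays was above the percentile for Cdh17, so its folds are set against a level at the dim end of the arrays. It was 122-fold higher in yDucts (6.93 ± 0.35, adjusted p = 4.49e-09) and 46.2-fold higher in Ducts (5.53 ± 0.35, adjusted p = 3.28e-08) than in Acini. All 4 yDucts arrays were above all 4 Ducts arrays, narrowly so for Ducts A, and Cdh17 was 2.64-fold higher in yDucts than in Ducts without passing the test (1.40 ± 0.35, adjusted p = 0.0524). Without Ducts A it passed (1.79, adjusted p = 0.00173), as it did with array weights (adjusted p = 4.19e-05) and, close to the threshold, under 4 other choices of scaling, filter or probe set.

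Cdh13, T-cadherin, which is held in the membrane by a lipid anchor and binds adiponectin and LDL, split the Ducts in the opposite order to Cdh2. It read 10.88, 10.02, 10.89 and 10.60 in yDucts, then 10.27, 9.87, 6.81 and 6.54 in Ducts, against 7.05, 7.36, 7.10 and 7.54 in Acini. Ducts A and B were near the yDucts and, on this probe set, Ducts C and D were below every Acini array. Cdh13 was 10.1-fold higher in yDucts than in Acini (3.33 ± 0.70, adjusted p = 0.000838). In Ducts it was not called (1.11 ± 0.70, adjusted p = 0.167). As a description of the split, it was higher by 2.81 without Ducts C and D and differed by -0.59 where A and B were left out. Nor was Cdh13 called between yDucts and Ducts (2.23 ± 0.70, adjusted p = 0.131). There the difference was 0.53 without Ducts C and D and 3.92 where Ducts A and B were left out. The other 2 probe sets above the percentile on the organoid arrays kept Ducts A and B high and C and D low. They read 9.90, 9.43, 6.57 and 6.06, and 7.53, 7.6, 4.22 and 4.11. On the former Cdh13 was called higher in Ducts than in Acini, by 1.89 (adjusted p = 0.0249). The latter read 3.38, 2.4, 3.15 and 2.6 in Acini, below every Ducts array and below the percentile. It passed the filter only through the organoid arrays, where it is high, so its values are given as a description.

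Cdh16, the cadherin named for kidney tubules, was higher on Ducts C and D alone. It read 5.06, 4.48, 5.44 and 4.73 in yDucts and 5.01, 4.97, 7.20 and 7.43 in Ducts, against 4.92, 5.19, 4.24 and 5.19 in Acini. Ducts A and B lay within the Acini range and Ducts C and D above every other array. Cdh16 was called in Ducts against Acini (1.27 ± 0.52, adjusted p = 0.0404). That call rested on arrays C and D, since the difference was 0.10 without them (adjusted p = 0.771) and 2.43 without A and B. It was also lost without Ducts C or D alone, yDucts A or any of the Acini arrays (adjusted p up to 0.13). Quantile normalization, cyclic loess and a fit of Ducts and Acini only ended the call too. In yDucts against Acini Cdh16 differed by 0.04, with a 95% interval of -1.08 to 1.17. Between yDucts and Ducts it was not called (-1.23 ± 0.52, adjusted p = 0.305), and with Ducts A and B left out the difference was -2.39. Cdh23, a cadherin of the hair-cell tip link, and Cdh26 fell in both organoid groups. Cdh23 read 4.44, 3.99, 4.0 and 4.13 in yDucts and 4.03, 4.12, 3.92 and 4.09 in Ducts, against 5.83, 6.22, 5.38 and 4.48 in Acini, where array D lay just above the organoids. Cdh23 was 2.53-fold lower in yDucts (adjusted p = 0.00101) and 2.71-fold lower in Ducts (adjusted p = 0.000597), and Cdh26 was 2.39-fold lower in yDucts (adjusted p = 3.89e-05) and 2.34-fold lower in Ducts (adjusted p = 4.88e-05).

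**Figure D3:**
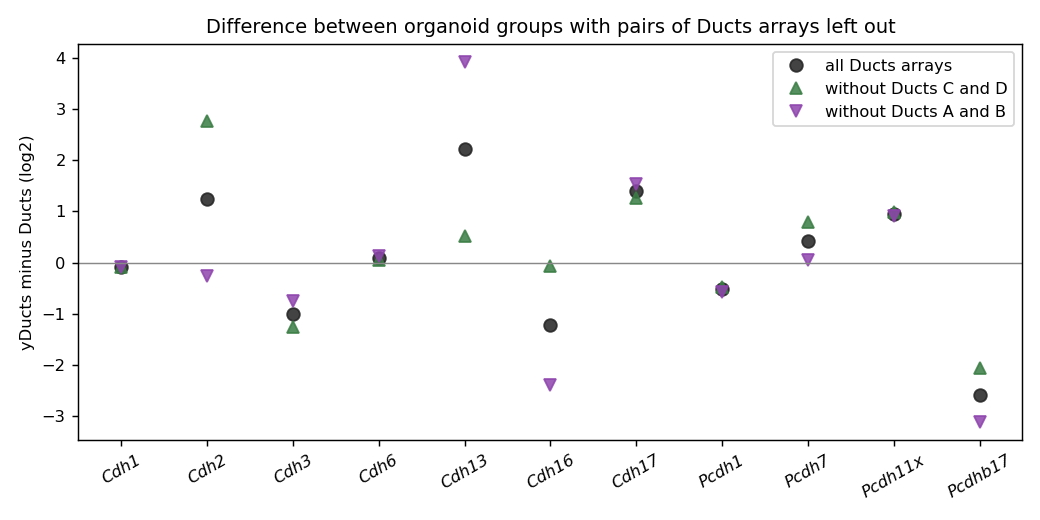
Differences between yDucts and Ducts in log2 units for 11 named members, with all Ducts arrays (circles), without Ducts C and D (upward triangles) and without Ducts A and B (downward triangles). For Cdh13 the value is 0.53 without C and D and 3.92 without A and B, for Cdh2 it is 2.76 without C and D and -0.26 without A and B, and Pcdhb17 is below 0 in each.

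Among the 9 tested non-clustered protocadherins the yDucts had 2 rises and 5 falls, beside 43.6% and 32.6% of all genes, and the Ducts 1 rise and 5 falls, beside 42.7% and 33.1%, against Acini, with a median of -0.62 in yDucts and -0.72 in Ducts. The largest falls were those of Pcdh17, Pcdh18 and Pcdh19. Pcdh17 read 2.42, 2.48, 2.43 and 2.52 in yDucts and 2.32, 2.36, 2.48 and 2.56 in Ducts, against 4.31, 4.30, 4.74 and 3.76 in Acini. It was below the percentile on all organoid arrays and above it on all Acini arrays, which gave at least 2.12-fold lower in yDucts (adjusted p = 1.41e-06) and at least 2.10-fold lower in Ducts (adjusted p = 1.26e-06). Pcdh17 passed the filter only through Acini, and with no filter its adjusted p was 1.42e-06 in yDucts and 1.27e-06 in Ducts. Pcdh18 read 3.17, 3.33, 3.18 and 3.51 in yDucts and 3.01, 3.25, 3.03 and 3.19 in Ducts, against 4.30, 5.22, 4.49 and 5.22 in Acini, with no overlap. It was 2.85-fold lower in yDucts (adjusted p = 2.68e-05) and at least 3.01-fold lower in Ducts (adjusted p = 1.04e-05). Pcdh19, whose human gene underlies an epilepsy of girls, was 2.62-fold lower in yDucts (adjusted p = 0.000865) and 1.84-fold lower in Ducts (adjusted p = 0.0154), where Ducts A at 5.11 lay among the Acini arrays and the other Ducts arrays at 3.62 to 4.04 lay below them. The Pcdh19 call in Ducts was lost without Ducts C and D (adjusted p = 0.113), without Acini D and after cyclic loess. Pcdh12, a protocadherin of endothelial cells, was called lower in both, at least 1.52-fold in yDucts (adjusted p = 0.0356) and at least 1.53-fold in Ducts (adjusted p = 0.00781). Both calls were lost after quantile and cyclic loess normalization, the one in yDucts also without any 1 yDucts array, and the one in Ducts without Ducts C and D. Pcdh15, the partner of Cdh23 in the tip link, was 1.35-fold lower in yDucts (-0.43, adjusted p = 0.0309), less than the shift of the 30th percentile, and was not called in Ducts (adjusted p = 0.0684). The 8 stromal markers were called lower in both comparisons. They averaged 3.28 to 3.36 in yDucts and 3.23 to 3.44 in Ducts, against 6.78 to 7.49 in Acini. The means of Col3a1, Pdgfra and Lum were below the percentile in both organoid groups. Without Acini these would not have passed the filter, so among tested genes they had to differ. The part of the 8 markers in these falls was not tested.

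Pcdh1, a protocadherin of the airway epithelium in human, rose in Ducts. It read 5.91, 5.36, 6.11 and 5.57 in yDucts and 5.98, 6.46, 6.46 and 6.15 in Ducts, against 5.57, 5.48, 4.84 and 5.71 in Acini. All Ducts arrays were above all Acini arrays, and the yDucts arrays overlapped with both. Pcdh1 was 1.82-fold higher in Ducts than in Acini (0.86 ± 0.22, adjusted p = 0.00334), a call lost after quantile and cyclic loess normalization, and was not called in yDucts (0.34 ± 0.22, adjusted p = 0.18). Pcdh7 read 4.35, 5.50, 4.43 and 4.10 in yDucts and 4.37, 3.22, 4.66 and 4.42 in Ducts, against 3.52, 3.60, 4.07 and 3.82 in Acini. Of the Ducts arrays 3 lay within the yDucts range. The yDucts and Acini arrays did not overlap but nearly touched, and Pcdh7 was called at 1.79-fold higher in yDucts (adjusted p = 0.036). This call was lost without yDucts B or without Acini A, B or D (adjusted p up to 0.12), with array weights, with the replicate block (adjusted p = 0.0605), with the mean of probe sets and on both other probe sets, and 1 of the other Pcdh7 probe sets ran the opposite way (-0.32).

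Pcdh11x was the member that rose in yDucts against Ducts. It read 4.70, 4.49, 4.52 and 3.95 in yDucts and 3.54, 3.32, 3.57 and 3.43 in Ducts, against 3.86, 3.57, 4.07 and 4.32 in Acini. The yDucts and Ducts arrays did not overlap, and the Acini arrays lay between the means of both. Pcdh11x was 1.93-fold higher in yDucts than in Ducts (0.95 ± 0.19, adjusted p = 0.0169). Its second probe set gave 5.18, 4.91, 4.85 and 4.24 in yDucts and 2.59, 2.70, 2.80 and 2.77 in Ducts, against 3.55, 3.48, 3.34 and 2.75 in Acini. That probe set was above the percentile on the yDucts arrays alone, and its values are given as a description. The call on the brighter probe set was lost without Ducts D, yDucts A or yDucts C (adjusted p up to 0.0784) and without Ducts C and D (adjusted p = 0.0848), with differences of 0.85 to 0.98. Against Acini, Pcdh11x was called higher in yDucts (0.46, adjusted p = 0.0448) and lower in Ducts (-0.49, adjusted p = 0.0345), and either call was lost under many of the alternatives.

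**Figure D4:**
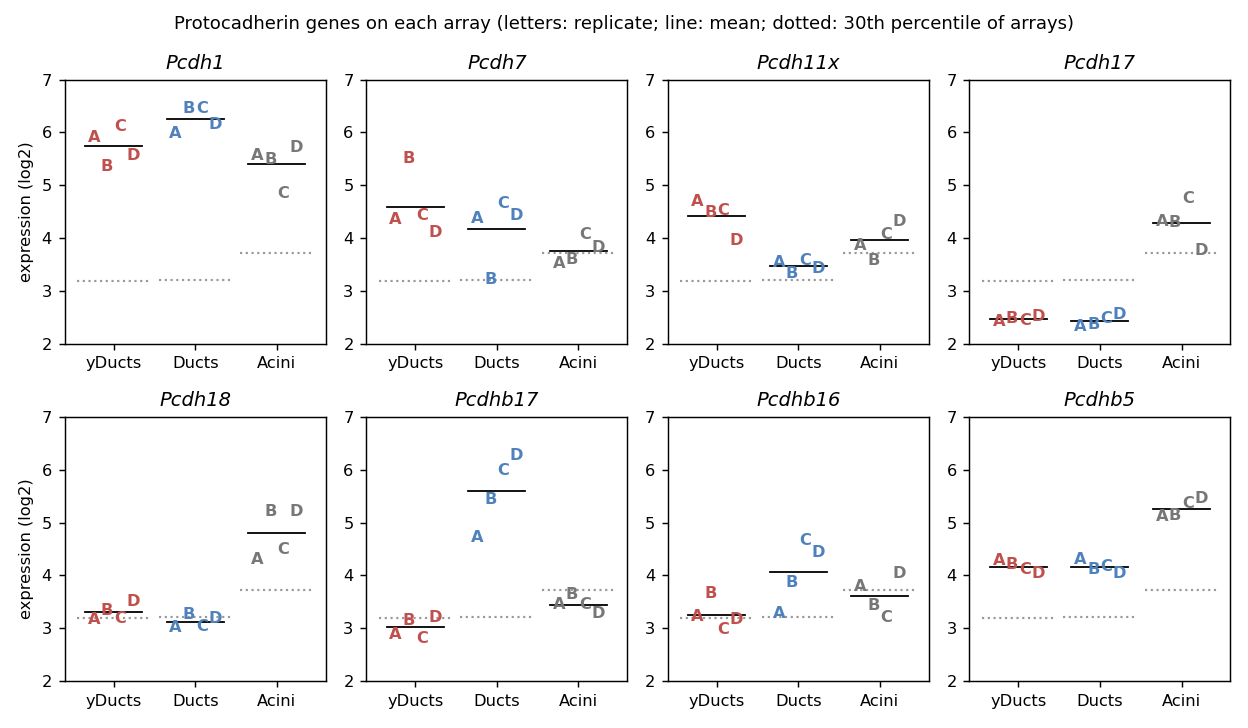
Log2 expression of 8 protocadherin genes on each array, with letters for replicates A to D, yDucts, Ducts and Acini shown left to right, a line at the group mean and a dotted line at the mean 30th percentile of the group's arrays. Pcdhb17 is high on the 4 Ducts arrays alone, Pcdh11x is higher on the yDucts than on the Ducts arrays, and Pcdh17, Pcdh18 and Pcdhb5 are highest on the Acini arrays.

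The clustered protocadherins were mostly dim. Of the 22 Pcdhb genes 2 were above the percentile on all 4 yDucts arrays, 4 on all 4 Ducts arrays and 2 on all 4 Acini arrays. Pcdhb17, one gene of that cluster, was bright in Ducts alone and read 2.88, 3.15, 2.81 and 3.21 in yDucts and 4.71, 5.43, 5.99 and 6.27 in Ducts, against 3.44, 3.63, 3.45 and 3.27 in Acini. All 4 Ducts arrays were above the other 8, with Ducts C and D above A and B. Pcdhb17 was at least 5.30-fold lower in yDucts than in Ducts (-2.59 ± 0.27, adjusted p = 0.000157) and at least 3.68-fold higher in Ducts than in Acini (2.15 ± 0.27, adjusted p = 1.28e-05). In yDucts against Acini it was below the percentile in both groups (adjusted p = 0.162). Pcdhb17 passed the filter only through the 4 Ducts arrays, where it is high, so among tested genes it had to differ. With no filter, over all genes, its adjusted p was 0.000166 for yDucts against Ducts and 1.37e-05 for Ducts against Acini. It was not tested where one of these was left out and the filter was applied again. With the tested genes kept as they were, its difference between yDucts and Ducts was -2.06 without Ducts C and D, while leaving out Ducts A and B gave -3.12.

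The genes beside Pcdhb17 in the cluster are Pcdhb16 and Pcdhb18. Pcdhb16 read 3.22, 3.66, 2.97 and 3.17 in yDucts and 3.28, 3.86, 4.67 and 4.44 in Ducts, against 3.78, 3.43, 3.21 and 4.04 in Acini. Ducts C and D were its highest arrays, and it was not called in any comparison (yDucts against Ducts -0.81, adjusted p = 0.193). A second Pcdhb16 probe set read 4.71 and 5.08 on Ducts C and D, 3.30 and 3.76 on Ducts A and B, and up to 4.75 in Acini. Pcdhb18 stayed at 2.18 to 2.42 in yDucts, 2.45 to 2.72 in Ducts and 2.70 to 3.22 in Acini and was not tested. Pcdhb20 read 3.01 to 3.24 in yDucts and 3.55 to 4.33 in Ducts, against 3.03 to 4.25 in Acini, and its gap between yDucts and Ducts did not pass the test (-0.66, adjusted p = 0.233). Pcdhb21 was highest in Acini, at 3.81 to 4.56, against 2.39 to 2.6 in yDucts and 2.74 to 4.17 in Ducts. It was at least 1.86-fold lower in yDucts than in Acini (adjusted p = 0.000189) and 1.80-fold lower in Ducts (adjusted p = 0.0132, lost under each of the 3 other scalings and without Ducts A and B, where p was 0.196). Pcdhb21 was above the percentile on all Acini arrays, on Ducts D and on no yDucts array. Among tested genes it therefore had to be lower in yDucts. The call in yDucts was kept with no filter.

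**Figure D5:**
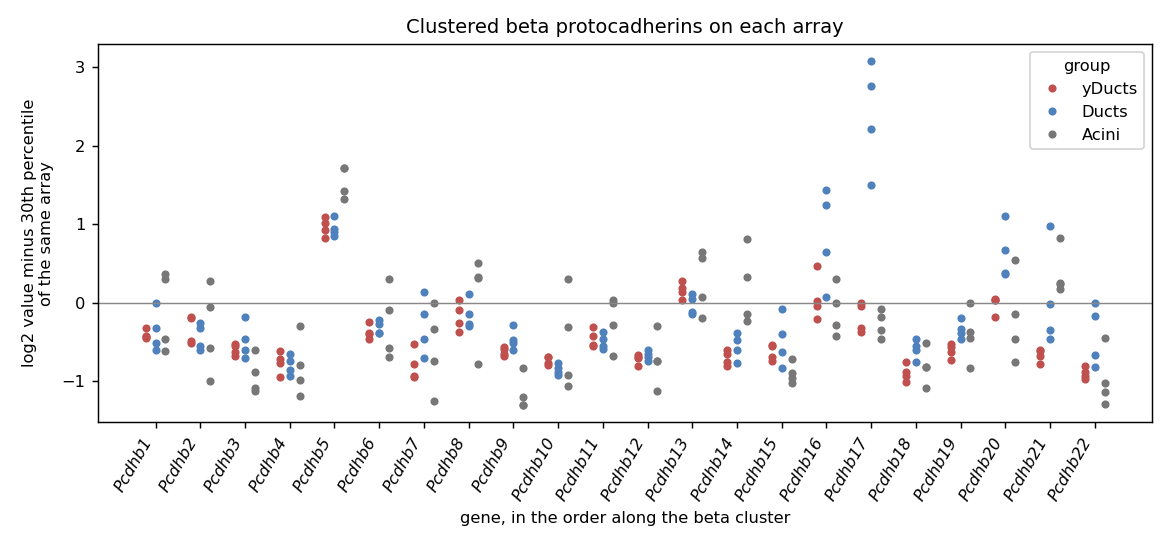
Log2 value of the 22 Pcdhb genes minus the 30th percentile of the same array, in gene order along the cluster, with 4 points per group in the order yDucts, Ducts and Acini. Pcdhb5 lies above 0 on all 12 arrays, Pcdhb17 does so on the 4 Ducts arrays, and most other genes lie at or below 0.

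Pcdhb5 was above the percentile on every array, at 4.29, 4.2, 4.11 and 4.03 in yDucts and 4.31, 4.11, 4.17 and 4.04 in Ducts, against 5.11, 5.13, 5.36 and 5.46 in Acini. The organoid groups shared a mean and neither overlapped with Acini. Pcdhb5 was 2.15-fold lower in yDucts (-1.11 ± 0.13, adjusted p = 8.73e-06) and 2.15-fold lower in Ducts (-1.11 ± 0.13, adjusted p = 8.86e-06) than in Acini. Pcdhb8 and Pcdhb13 were called lower in both as well, Pcdhb8 by -0.79 in yDucts and -0.75 in Ducts, and Pcdhb13 by -0.64 in yDucts and -0.81 in Ducts. The 30th percentile itself differed by -0.53 in yDucts and -0.51 in Ducts. These 4 calls were lost after quantile and cyclic loess normalization. Over all called falls of members, 13 of 14 in yDucts and 14 of 15 in Ducts were larger than that shift of the percentile. In place on the array, 12 of 14 in yDucts and 14 of 15 in Ducts were lower, the exceptions being Pcdh12 and Pcdh15 in yDucts and Pcdh11x in Ducts. A fall had to be large for its spread to be called, and the shares over all called genes were not computed. These counts therefore cannot tell the falls from a difference in scaling. Pcdhgc4, the one member of the gamma cluster with a probe set of its own, was not called against Acini, at 3.66 ± 0.20 in yDucts and 3.19 ± 0.18 in Ducts, against 3.59 ± 0.54 in Acini. The alpha cluster was covered by 6 probe sets that carry 9 to 14 symbols each. They reached at most 3.92 in yDucts, 3.96 in Ducts and 5.22 in Acini, and 1 of the 6 was above the percentile on all 12 arrays.

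The partners of the cadherins in the junction were mostly higher in the organoids, as were 43.6% of all genes in yDucts and 42.7% in Ducts. Of 9 tested catenins and actin links 7 rose and 1 fell in yDucts, with a median of 1.33, and 7 rose and 1 fell in Ducts, with a median of 1.45. Ctnnb1, beta-catenin, which binds the cadherin tail, rose by 2.46 in yDucts (adjusted p = 1.53e-07) and by 2.31 in Ducts (adjusted p = 2.51e-07). Ctnna1, alpha-catenin, the link to actin, rose by 2.68 in yDucts (adjusted p = 2.15e-07) and by 2.81 in Ducts (adjusted p = 1.42e-07). Ctnnd1, p120-catenin, which holds cadherins at the surface, rose by 1.33 in yDucts and 1.36 in Ducts, and Vcl, vinculin, by 2.73 in yDucts and 2.45 in Ducts. Jup, plakoglobin of the desmosome, was not called, at 0.12 in yDucts and 0.22 in Ducts, and Ctnna3, the alpha-catenin of heart and testis, was called lower, with means of 3.08 in yDucts and 3.06 in Ducts, below the percentile, against 4.26 in Acini. For Ctnnd1 the Ducts arrays read 9.99, 9.60, 8.87 and 8.74, with A and B above C and D. None of the 9 was called between yDucts and Ducts, where 3.14% of all genes were.

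Nectins and afadin gave 3 rises and 1 fall of 5 in yDucts and 4 rises and 1 fall in Ducts. Nectins start a junction before cadherins gather there. Over all genes 43.6% rose and 32.6% fell in yDucts, and 42.7% rose and 33.1% fell in Ducts, against Acini. Nectin3 read 6.86, 6.83, 6.87 and 6.79 in yDucts and 4.87, 3.80, 7.52 and 7.72 in Ducts, against 2.91, 2.90, 3.02 and 4.16 in Acini. It was called higher in yDucts (adjusted p = 0.000511) and in Ducts (adjusted p = 0.0036), with Ducts A and B far below C and D and the Acini mean below the percentile, so no size is given. Afdn, afadin, which ties nectins to actin, rose by 1.94 in yDucts (adjusted p = 7.8e-07) and by 2.45 in Ducts (adjusted p = 1.06e-07). Nectin4 was lower in yDucts than in Ducts (-1.38, adjusted p = 0.0137). Of 9 proteases that cut cadherins 7 rose and 1 fell in yDucts and 6 rose and 1 fell in Ducts, beside the same shares of all genes. The metalloprotease Adam17 rose by 3.03 in yDucts and 2.90 in Ducts, and Mmp14 by 2.35 in yDucts and 2.77 in Ducts. Mmp7, of the same list, read 11.47, 11.57, 12.3 and 9.35 in yDucts, against 6.55, 5.56, 6 and 6.86 in Acini. Its Ducts arrays split, with 12.53 and 13.43 on A and B and 5.66 and 4.62 on C and D. Adam10, the main sheddase of E-cadherin, rose by 1.52 in yDucts and 1.06 in Ducts, where arrays A and B at 10.08 and 10.29 stood above C and D at 9.45 and 9.46. Psen2, of the gamma-secretase, fell by 1.81 in yDucts and 1.56 in Ducts.

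Of 10 regulators of the clustered protocadherin promoters 6 rose and 1 fell in yDucts and 8 rose in Ducts, beside the same shares of all genes, and none was called between yDucts and Ducts, where 3.14% of all genes were. Rad21 of cohesin rose by 2.66 in yDucts and 2.50 in Ducts, Smchd1, a silencer of the cluster, by 2.29 in yDucts and 2.39 in Ducts, and Ctcf by 1.47 in yDucts and 1.53 in Ducts. Dnmt3b, the methyltransferase of these promoters in mouse neurons, was lower in yDucts than in Acini (-0.82, adjusted p = 0.000513) and was not called in Ducts (-0.28, adjusted p = 0.137). Of 7 protocadherin partners 5 rose and 1 fell in yDucts and 5 rose and 2 fell in Ducts, beside those shares of all genes. These partners belong largely to the WAVE complex, which drives branched actin. Wasf1 rose by 3.17 in yDucts and 3.0 in Ducts, while Cyfip2 fell by 5.30 in yDucts and 5.12 in Ducts. Abi2 was the one called between the organoid groups, higher in yDucts than in Ducts (1.5, adjusted p = 0.000424).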

How the data were processed

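Total RNA of 12 samples was labelled with biotin and hybridised to Affymetrix mouse arrays, 1 array per sample. The deposited table holds 1 log2 value for each probe set and array. Processing notes of the submitters name RMA. Its version, the chip definition, any filter and whether all arrays were normalized jointly are not stated in those sources. RMA values are relative to the other probe sets on an array. Of 45101 probe sets 34958 carried 1 gene symbol in the platform annotation and were used, and 932 with several and 9211 with none were left out, apart from the 6 alpha-cluster probe sets described. The brightest probe set by mean over 12 arrays stood for a gene, which left 45 member probe sets beside those used. Of 18194 genes 14991 passed the 30th percentile filter on 4 or more arrays and were tested with limma 3.58.1 in R 4.3.3 (group means, all 12 arrays, eBayes, two-sided, 9 residual and 3.72 prior degrees of freedom, Benjamini-Hochberg over all 14991). The code was tested on simulated data. Where a group mean of a member lay below its percentile, the fold was taken to that percentile and given as at least.

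The labels call the arrays biological replicates but do not say whether they came from different animals, so each p-value rests on differences among arrays that may be technical. The members and the gene lists were chosen with earlier results of these data known. Named were all classical and other cadherins, the markers Cdh1 and Pcdhb17, and up to 4 called protocadherins of each kind and direction per comparison, with the catenins Ctnna1, Ctnnb1, Ctnnd1 and Jup and, from up to 3 per partner list and comparison with the largest called differences, some examples; Pcdh15, Pcdhb16, Pcdhb18, Pcdhb20, Pcdhgc4, Ctnna3, Adam10, Ctcf and Dnmt3b were added after their values were seen. Alternatives were other scalings (quantile, cyclic loess, median-centred), other filters and probe set choices, array weights, the letter as a replicate block, a fit of 2 groups only, and leaving out each array or Ducts A and B or C and D. The pairs of Ducts arrays follow the split seen in the same values, so fits without a pair describe it and do not test it. Fits with the tested genes kept as on all 12 arrays, and the other probe sets of named members, were added after the data were seen.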

Additional observations from a re-analysis of the deposited data

Results flagged for a closer look

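In each group of 4 arrays the highest or lowest value was compared with the rest, and it was listed where its gap to the nearest other array exceeded the 95% critical value of Dixon's gap ratio for 4 values. This was done for 26 tested members in 3 groups, 78 groups in all, and chance alone lists about 1 in 20. It listed 2. Cdh3 in Ducts A was 7.44, with the other Ducts arrays at 6.42 to 6.45. Pcdhb8 in Acini C was 2.85, with the other Acini arrays at 4.06 to 4.21. The split of the Ducts into A and B against C and D, for Cdh2, Cdh13 and Cdh16, is not of this kind, since neither pair lies alone.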

How the results depend on the processing

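Among named members, 2657 values under an alternative kept their side of the threshold, 166 lost a call, 57 gained one and 4 turned direction. The 4 were Cdh3 on its dimmer probe set (-0.92 in yDucts and -0.65 in Ducts against Acini), Pcdh7 on another probe set (-0.32 in yDucts against Acini) and Pcdh11x after cyclic loess (0.0486 in Ducts against Acini). The calls of Cdh1, Cdh2, Cdh5, Cdh6, Cdh15, Cdh17, Cdh23, Cdh26, Pcdh17, Pcdh18 and Pcdhb5 against Acini held under every alternative in which they were tested. Scaling moved the median of all genes from 0.24 to -0.16 (quantile), -0.15 (cyclic loess) and 0.46 (median-centred) in yDucts against Acini, and from 0.20 to -0.15, -0.17 and 0.41 in Ducts against Acini, and the share of calls that were higher from 57.2% to 44.9%, 43% and 64.8%, and from 56.3% to 44%, 41.4% and 63.7%.

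Falls in yDucts against Acini (14) numbered 10 after quantile normalization, 8 after cyclic loess and 10 with median centring. They numbered 33 with no filter, 5 with the 50th percentile and 9 with the mean of probe sets. Falls in Ducts against Acini (15) numbered 9 after quantile normalization, 7 after cyclic loess and 10 with median centring. They numbered 32 with no filter and 5 with the 50th percentile. Rises in yDucts against Ducts (1) numbered 2 with median centring, 2 with the mean of probe sets, 3 with the most variable probe set, 5 with array weights, 3 without Ducts A and B under either filter, and 0 to 3 with single arrays left out. Falls there (2) numbered 1 after quantile normalization, with the mean of probe sets, with only those groups fitted and without Ducts C and D, 8 with array weights, 4 without Ducts A and B (5 with the tested genes kept), and 0 to 2 with single arrays left out, where Cdh3 lost its call or Pcdhb17, lacking a Ducts array, was not tested. With the letters as a replicate block it was 1. The labels do not say whether a letter pairs arrays of different groups. Deviations of same-lettered arrays correlated at -0.35 to 0.134 over 12 pairs, those of other letters at -0.369 to 0.369 over 36. Such correlations cannot exclude that arrays of a letter shared an animal or a batch. The cause of the other shifts was not tested. Low signal limits 25 members to no test at all.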

Other observations

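Of 18 tested genes with cadherin repeats outside the 56 members, 3 rose and 13 fell in yDucts against Acini, with a median of -0.61, beside 43.6% and 32.6% of all genes. In Ducts against Acini 4 rose and 13 fell, with a median of -0.71, beside 42.7% and 33.1% of all genes. Fat1, a giant cadherin that organises actin at cell edges, rose by 4.88 in yDucts (adjusted p = 9.33e-09) and by 4.73 in Ducts (adjusted p = 1.25e-08). Dsc2, a desmosomal cadherin, rose by 2.31 in yDucts and by 3.34 in Ducts. Its partner Dsg2 was lower in yDucts than in Ducts (-1.08, adjusted p = 0.000978). Celsr1, of planar polarity, was higher in yDucts than in Ducts (1.01, adjusted p = 0.019), where arrays A and B read 8.05 and 7.90 and arrays C and D 7.28 and 7.33, as was Cdhr5, a cadherin of the brush border (1.17, adjusted p = 0.0244). Cdhr2, its partner in the brush border, had a mean of 3.08 in yDucts, below the percentile, and of 3.37 in Ducts, against 5.33 in Acini, and was called lower in both.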
